A study of Homo sapiens with 10 samples.

Results

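The TcMar DNA transposons, named after the Tc1 and mariner elements, were followed in 10 RNA-seq libraries of H1 cells, an established human embryonic stem cell line. They were taken as every transposable element (TE) row whose identifier in the per-library table begins with DNA:TcMar, a choice that uses no measured value. This gave 77 subfamilies, out of 973 TE rows and 14785 rows in all (13808 of them genes). A subfamily row sums the reads the authors assigned to its copies across the genome, so a row has no position of its own, and how reads were shared between copies, or with the gene around a copy, is not stated in the sources used here.

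Each library came from H1 cells, labelled wild type, that received a virus-delivered short hairpin RNA (shRNA) and were then selected with puromycin. The shRNA was directed against SMARCA4 (the ATPase of the BAF chromatin remodelling complex), MAFK (a small basic leucine zipper factor), E2F6 (a repressive E2F protein found in a Polycomb complex) or KDM1A (the histone lysine demethylase LSD1). The controls, shLUC, carried a hairpin against luciferase and went through the same virus and selection steps. Each of the 5 groups had 2 libraries, which the series' text calls biological duplicates; the number of hairpins per gene and the time of harvest are not given in the labels. All 4 comparisons use the same shLUC libraries and are therefore not independent of each other.

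DNA transposons of this superfamily move by a cut-and-paste reaction in which a transposase with a DDE-type catalytic core recognises the short inverted repeats at the ends of the element and inserts it at a TA dinucleotide. In the human genome they are fossils: the copies have lost the ability to move, and what RNA they give comes in the main from copies that lie within or beside other transcripts. Several host genes descend from their transposases, among them CENPB, POGZ, the TIGD genes and SETMAR. MADE1, a miniature mariner element that is little more than a pair of inverted repeats, is the known source of many microRNA genes of the miR-548 family.

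The members fell into 4 classes by their identifiers. The Tigger class, related to the pogo element of flies, had 63 members. Of these, 40 carry Tigger names and 17 carry MER names, given to medium-reiterated repeats and used here in the main for short elements without a transposase of their own. The other Tigger members are the 4 rows UCON11, UCON33, UCON39 and UCON55 and the 2 rows MamRep137 and MamRep434. The Tc2 class had 8 members, which are 7 Kanga rows and MER104. The Mariner class had 5 members, HSMAR1, HSMAR2, MADE1, MADE2 and MARNA. The remaining row, DNA1_Mam, has no class.

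No MADE1 sequence was used here. The 2 hairpin precursors below, of the miR-548 family, are shown as an example of the palindromic RNA that the family is known for; whether these 2 overlap a MADE1 copy was not checked. The search, which skipped a chromosome, covered 5 hairpins of the family. Among those 5 only, these 2 hold the longest exact inverted repeats, and the arms of all 5 run from 7 to 29 bases. They are given as RefSeq lists them on GRCh38.p14, 5′ to 3′, and capitals mark that repeat. MIR548M lies at chrX:95063141-95063226 on the minus strand and MIR548AW at chr9:132945707-132945771 on the plus strand. The arms are 29 bases long in MIR548M and 13 bases long in MIR548AW. These hairpins are not rows of the table, and the MADE1 values below are sums over the MADE1 copies and not a measure of any microRNA.
MIR548M: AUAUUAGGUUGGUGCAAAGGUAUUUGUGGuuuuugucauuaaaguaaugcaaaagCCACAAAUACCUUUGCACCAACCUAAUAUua
MIR548AW: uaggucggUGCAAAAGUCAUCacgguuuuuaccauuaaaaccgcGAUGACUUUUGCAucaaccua

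The values are normalized whole numbers. All 10 libraries shared a median of 594, a highest value of 148866 and totals between 22836548 and 22855295. Read depth is therefore unknown and no interval for counting error is given. Since 80.3% of ranks also held the same value in all 10, a value mostly gives a row's rank in its library. A change shared by most rows of a library would not show in such values. The hairpins were checked on their targets first. SMARCA4 stood at 1100 and 985 in its knockdown against 8086 and 8374 in shLUC, a fall (limma adjusted p = 8.55e-05). KDM1A stood at 3290 and 1879 against 6344 and 5925 (adjusted p = 0.132), E2F6 at 336 and 304 against 491 and 553 (adjusted p = 0.774), and MAFK at 82 and 216 against 212 and 288 (adjusted p = 0.572), so these 3 targets were lower on average without passing the test, and the MAFK groups overlapped. All 10 pluripotency markers looked for were in the table, with POU5F1 among its highest rows, and 0 of them passed in any knockdown at an adjusted p. In the SMARCA4 knockdown, 4 of the 10 had an unadjusted limma p under 0.05, beside 16.3% of all rows. Of these, SOX2, LIN28A and TDGF1 were lower, at 68.8%, 73.6% and 67.9% of shLUC, and NANOG was higher, at 161%. In the SMARCA4 knockdown, MIXL1 (mesendoderm) and ZIC1 (neural ectoderm) rose and KRT7 (trophoblast) fell, each at a limma adjusted p under 0.05. MIXL1 was uneven, at 1809 and 132 against 20 and 14 in shLUC. The other mesendoderm marker present, EOMES, was higher without passing (2430 and 724 against 14 and 34). The other neural ectoderm marker present, NES, did not rise on average (6143 and 3168 against 5300 and 6143, limma adjusted p = 0.776). Of the markers of other cell types, 2 of 6 for mesendoderm, 2 of 4 for neural ectoderm and 1 of 4 for trophoblast were in the table, so cell identity was checked only in part. In bulk RNA, fewer cells of a type and less RNA per cell cannot be told apart.

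One library stood apart at the low end of these members. Replicate 1 of shKDM1A held the lowest of the 10 values in 46 of the 77 TcMar members and the highest in 10. The main shKDM1A values are given below with and without replicate 1. At the high end, replicate 2 of shKDM1A held the highest value in 23 members (29.9%, beside 5.64% of all rows), more than any other library.

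TcMar RNA was present in every library. All 77 members passed the filter on low values (a mean of at least 10), no member was at 0 in any library, and the lowest single value was 34. Mean values over the 10 libraries were under 500 for 21 members, between 500 and 2000 for 36, between 2000 and 5000 for 17 and above 5000 for 3. The median of these means was 1012.8, against 590.4 over all TE rows. These levels are sums over all copies of a subfamily and are not per length, so their order says nothing about how strongly a copy is transcribed.

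The 3 highest rows were Tigger1, MER2 and Tigger19b. Tigger1, an autonomous-type element with a pogo-like transposase, had a mean of 19708.9 and made up between 13.1% and 19.2% of the summed TcMar value of a library. It took only 4 distinct values, with 19696 in 6 libraries, 21314 in 2 (shSMARCA4 replicate 1 and shMAFK replicate 1), 18610 in shLUC replicate 2 and 17675 with shKDM1A replicate 2. Across the table, 80.3% of ranks held the same value in all 10 libraries, and the steps between the Tigger1 values were 0.074, 0.082 and 0.114 on the log2 scale. MER2 averaged 6604.4 and Tigger19b 5481.5.

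The 3 lowest rows were UCON11 (mean 77.9), Tigger1a_Mars (108.9) and Tigger17b (186.9). UCON11 was 110 and 34 in shLUC, 116 and 36 with shSMARCA4, 126 and 62 with shMAFK, 48 and 38 with shE2F6, and 133 and 76 with shKDM1A. The shLUC libraries alone spanned most of this range, and the shE2F6 libraries lay inside their span. Tigger1a_Mars ranged from 64 to 158, with both extremes in knockdown libraries. Tigger17b ranged from 133 to 216.

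On this normalized scale the summed TcMar value was close to constant, apart from 1 library. It was 134197 and 124823 in shLUC, 128329 and 137637 with shSMARCA4, 133393 and 121103 with shMAFK, 130871 and 126964 with shE2F6, and 102815 and 134579 with shKDM1A. The group means were 103%, 98.3%, 99.5% and 91.7% of shLUC, in the same order of knockdowns. The 102815 of shKDM1A replicate 1 lay below all others, replicate 2 alone was at 104% of shLUC, and the other 9 sums overlapped between groups. As a share of all TE values, TcMar made up between 3.51% and 4.04%.

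**Figure D1:**
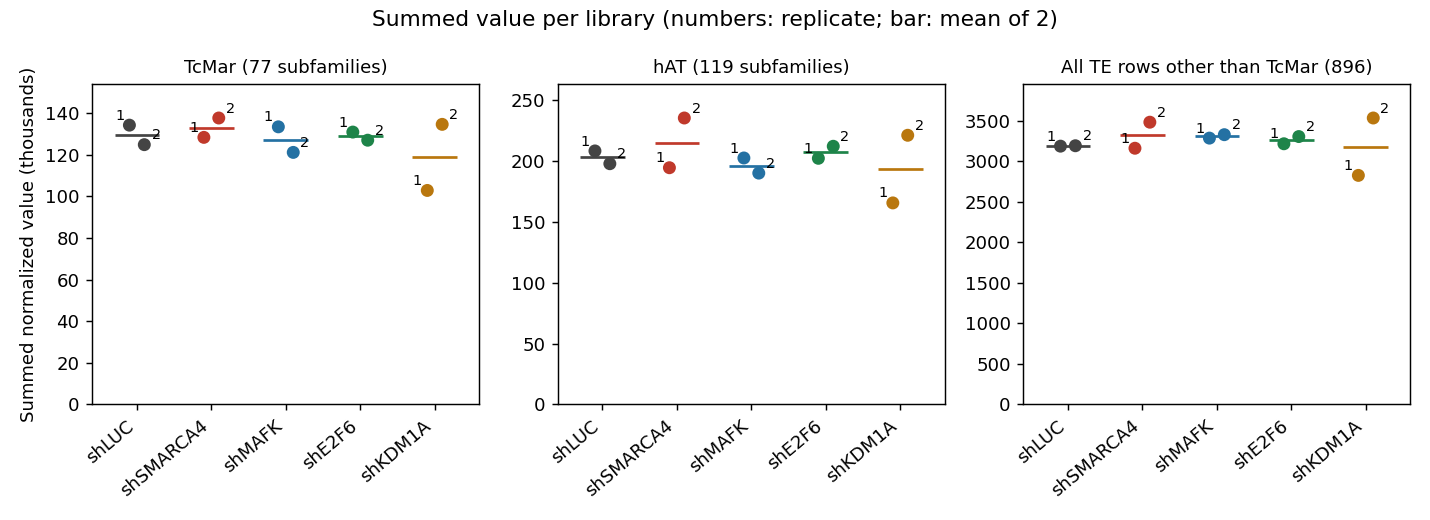
Summed normalized value (axis from 0) per library for the 77 TcMar subfamilies, the 119 hAT subfamilies and the 896 TE rows other than TcMar. Dots are libraries numbered by replicate and bars are the mean of 2; replicate 1 of shKDM1A is the lowest dot of each panel.

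TcMar rows varied little beside all rows, but not always less than hAT rows. The sets were not matched for level: the median of means was 1012.8 for the members, 590.4 for TE rows and 607.4 for all rows. Over 10 libraries the range was under 1 log2 unit in 85.7% of members, 89.9% of hAT rows, 83.1% of TE rows and 60.5% of all rows. Replicate 1 of shKDM1A, which stood apart on these same members, was then left aside. The range over the other 9 libraries was under 0.5 log2 units in 60 of the 77 members (77.9%), beside 64.7% of the 119 hAT rows, 54.2% of TE rows and 27.3% of all rows. It was under 1 log2 unit in 97.4% of members, 98.3% of hAT rows, 94.0% of TE rows and 75.1% of all rows. Tigger15a, the member with the narrowest range (0.17 log2 units), lay between 3584 and 4036 in those 9 libraries. The widest ranges were in the low rows UCON11 (1.86) and Tigger1a_Mars (1.29), followed by Kanga11a (0.96). Members also tended to move together from library to library: the median correlation between pairs of members was 0.376 over 10 libraries and 0.344 over 9, against 0.33 and 0.329 for pairs of hAT rows and 0.172 and 0.226 for pairs of TE rows. These correlations are a description, since the points share libraries, normalization and, where subfamilies are alike, possibly reads.

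**Figure D2:**
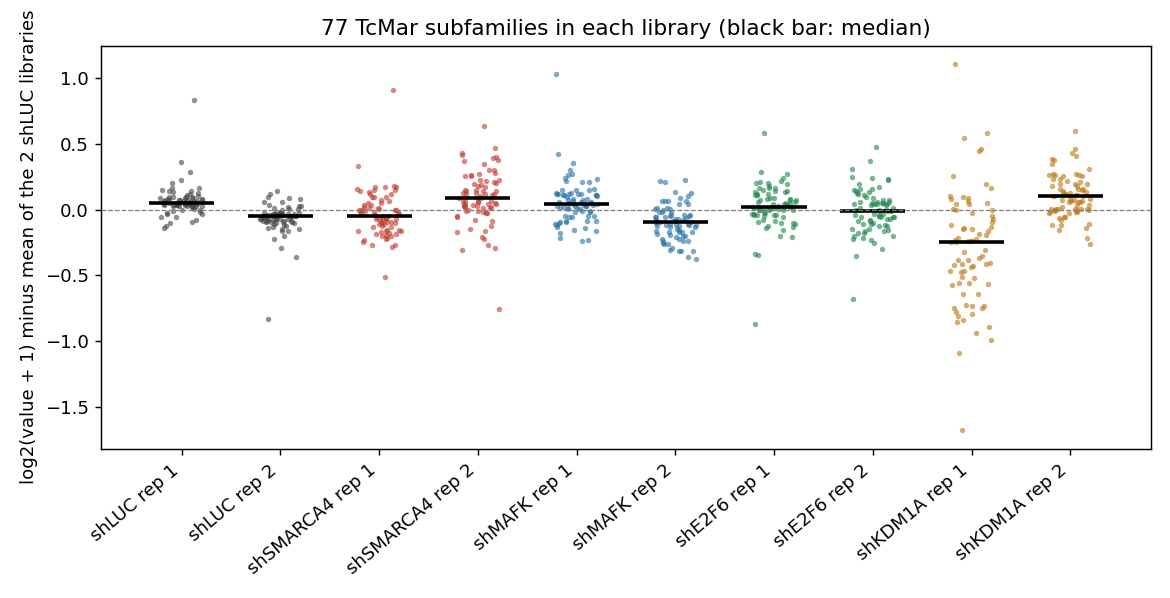
Each dot is 1 of the 77 TcMar subfamilies, placed by its log2(value + 1) minus the mean of the 2 shLUC libraries, for each of the 10 libraries; bars are medians. The medians lie near 0 except in shKDM1A replicate 1, at -0.25.

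The knockdown of SMARCA4 was compared with shLUC to ask whether TcMar RNA depends on the BAF ATPase. No member passed the test: limma on log2(value + 1) called 0 of 77 at an adjusted p under 0.05, in either direction, while it called 4.18% of all rows. At an unadjusted p under 0.05 it gave 1 member, Tigger9b, which is 1.3% of members beside 16.3% of all rows. The median log2 change was 0.037 over the members, 0.068 over all TE rows and 0.007 over all rows. Individual changes ran from -0.33 to 0.41, and 46 members (59.7%, beside 50.9% of all rows) were above 0. Both libraries lay outside the shLUC pair in 17 members, or 22.1% beside 51.0% of all rows. Of these, 10 were higher and 7 lower, beside 25.6% and 25.4% of all rows. The lowest adjusted p of a member was 0.296.

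The largest positive changes after SMARCA4 knockdown were those of MER44C, Tigger9b and Kanga1c. MER44C was 771 and 1061 against 834 and 559 in shLUC (log2 change 0.41, SE 0.31), and its groups overlapped. Tigger9b was 622 and 640 against 505 and 484 (0.35, SE 0.15, limma adjusted p = 0.296), with both knockdown libraries above both controls. Kanga1c, a Tc2-class row, was 694 and 880 against 672 and 605 (0.29, SE 0.29). The largest negative changes were those of Tigger1a_Mars, 82 and 106 against 108 and 128 (-0.33, SE 0.36), HSMAR1, and Tigger10, 3227 and 3367 against 3874 and 3902 (-0.24, SE 0.13). In these 3 rows the knockdown libraries lay below both controls, and none passed the test.

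The knockdown of MAFK gave no call among the members either, with 0 of 77 at an adjusted p under 0.05 beside 0.0135% of all rows. No member reached an unadjusted p under 0.05 in this comparison, where 8.77% of all rows did. The median log2 change was -0.035 over the members, 0.033 over all TE rows and -0.004 over all rows, and 25 members (32.5%, beside 49.0% of all rows) were above 0. In 19 members (24.7%, beside 49.1% of all rows) the knockdown libraries did not overlap shLUC, 14 of them lower and 5 higher, beside 25.3% and 23.8% of all rows. The 5 higher ones, named after their values were seen, were MER47B, MER8, Tigger6a, Tigger9b and UCON55.

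Changes after MAFK knockdown ran from -0.26 to 0.52. UCON11, the lowest row, had the largest positive change (0.52, SE 0.69), with overlapping groups. MER47B was 340 and 311 against 272 and 261 (0.29, SE 0.25), and Tigger1a_Mars was 158 and 123 against 108 and 128 (0.24, SE 0.36). At the other end, Tigger1a_Art was 338 and 324 against 464 and 341 (-0.26, SE 0.20) and Tigger5b 1468 and 1378 against 1793 and 1614 (-0.26, SE 0.22). Tigger19b, 1 of the 3 highest rows, was 5028 and 4960 against 6078 and 5791 (-0.25, SE 0.13) and had the lowest adjusted p of any member in this comparison by limma, 0.653. In all 3 the MAFK libraries lay below both controls.

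For E2F6, limma called 0 of 77 members and 0.0% of all rows at an adjusted p under 0.05. At an unadjusted p under 0.05 it gave 1 member, Tigger10, beside 5.09% of all rows. The median log2 change was -0.001 over the members, 0.048 over all TE rows and -0.003 over all rows, with 38 members (49.4%, beside 49.2% of all rows) above 0. The knockdown libraries did not overlap shLUC in 16 members (20.8%, beside 40.7% of all rows), 8 in each direction, beside 20.3% of all rows higher and 20.4% lower.

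The largest negative changes after E2F6 knockdown were in UCON11 (-0.51, SE 0.69), Tigger1a_Mars, 64 and 128 against 108 and 128 (-0.37, SE 0.36), and Tigger10, 3074 and 3151 against 3874 and 3902 (-0.32, SE 0.13, unadjusted p = 0.0398, limma adjusted p = 0.962). Of the 3, Tigger10 alone had no overlap with shLUC. The largest positive changes were in Kanga11a, 2880 and 2382 against 2462 and 1497 (0.45, SE 0.31), Tigger9b, 571 and 686 against 505 and 484 (0.34, SE 0.15), and Kanga1c, 778 and 756 against 672 and 605 (0.27, SE 0.29). Kanga11a overlapped the controls, whose own values differed widely, and the other two rows did not.

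**Figure D3:**
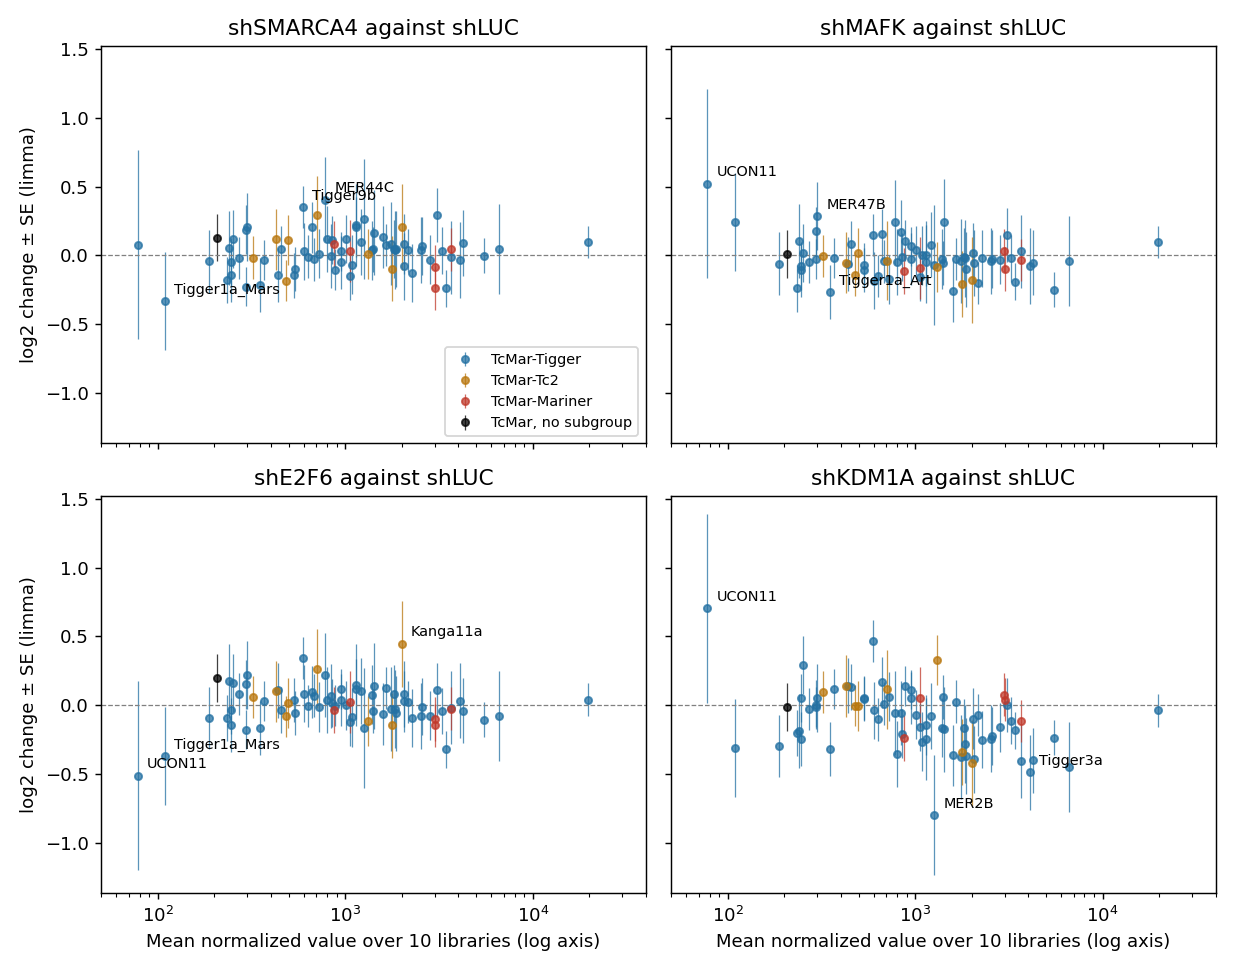
Log2 change against shLUC (y axis, points with ± SE from limma) of the 77 TcMar subfamilies by mean normalized value over 10 libraries (log axis), 1 panel per knockdown, coloured by class. The points gather around 0, and UCON11 (0.70) and MER2B (-0.80) mark the ends in the shKDM1A panel.

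KDM1A is known for keeping endogenous retroviruses silent in mouse embryonic stem cells, and here the result of its knockdown on TcMar rows depended on the library. With both libraries limma called 0 of 77 members at an adjusted p under 0.05, beside 0.0271% of all rows, and 1 member, Tigger9b, at an unadjusted p under 0.05, beside 11.5% of all rows. The median log2 change was -0.081 over the members, 0.056 over all TE rows and -0.018 over all rows, and 27 members (35.1%, beside 47.9% of all rows) were above 0. Only 8 members (10.4%, beside 38.8% of all rows) had no overlap with shLUC. Named after their values were seen, Kanga2_a, Tigger18a, Tigger6a and Tigger9b were higher and MADE2, Tigger10, Tigger19b and UCON33 were lower, 4 each way beside 17.9% and 20.9% of all rows. Replicate 2 alone lay above both controls in 40 members (51.9%, beside 34.0% of all rows and 66.7% of TE rows) and below both in 7 (9.09%, beside 38.6% of all rows).

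The shKDM1A libraries differed from each other by more than those of any other group, in size rather than in direction. Replicate 2 was higher than replicate 1 in 61 of the 77 members, beside 7552 of 14785 rows in all. Replicate 1 was higher in 63 members in shLUC, 70 in shMAFK and 47 in shE2F6, and replicate 2 in 65 in shSMARCA4. Replicate 2 minus replicate 1 had a median over all 77 of 0.42 log2 units in shKDM1A. It was -0.10 in shLUC, 0.14 in shSMARCA4, -0.15 in shMAFK and -0.05 in shE2F6. The shKDM1A libraries differed by at least 0.5 log2 units in 35 members (45.5%, beside 38% of all rows). The SD between replicates, pooled over the members on the log2 scale, was 0.43 for shKDM1A and lay between 0.134 and 0.204 in the other 4 groups. Over all rows it was 0.53 for shKDM1A and lay between 0.264 and 0.335 in the other groups. Relative to the shLUC mean, 60 of 77 members were lower in replicate 1 (median -0.25), beside 7633 of 14785 rows in all. In replicate 2, 57 of 77 were higher (median 0.10), beside 7030 of 14785 rows. These counts alone did not set the pair apart. In shMAFK replicate 2, 60 members were also lower (median -0.10), and in shSMARCA4 replicate 2, 57 were higher (median 0.09). A gap between the shKDM1A libraries also ran through the hAT transposons, whose sums were 165587 and 221184.

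The 6 widest gaps between the shKDM1A libraries were in Tigger-class elements, which are 63 of the 77 members. A typical gap was not particular to that class. Replicate 2 minus replicate 1 had a median of 0.42 log2 units in the Tigger class, 0.52 in the Tc2 class (8 members) and 0.22 in the Mariner class (5 members). MER2B was 417 in replicate 1 and 1410 in replicate 2, against 1415 and 1259 in the controls (log2 change -0.80, SE 0.44, adjusted p = 0.485 by limma). MER2 was 3264 and 7919 against 7042 and 6829 (-0.45, SE 0.33), and Tigger3a was 2178 and 4392 against 4487 and 4197 (-0.49, SE 0.28). Without replicate 1 these changes were 0.08 for MER2B, 0.19 for MER2 and 0.02 for Tigger3a. In all 3 rows replicate 1 was the lowest of the 10 libraries and replicate 2 lay inside or above the control range. Replicate 1 held 29.6% of the replicate 2 value in MER2B, 41.2% in MER2, 46.0% in MER44A, 46.6% in MER8, 49.6% in Tigger3a and 49.9% in Tigger2b_Pri. These were the 6 members whose shKDM1A libraries differed by at least 1 log2 unit, 7.79% beside 10.7% of all rows.

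A minority of members went the other way. In 16 members replicate 1 was above replicate 2, and their summed value was 38025 and 34524, while that of the other 61 was 64790 and 100055. The split used these same libraries, so the direction of both sums was fixed in advance. Tigger1 alone gave 19696 and 17675 of the sums of the 16. UCON11 was 133 and 76 against 110 and 34 in shLUC (0.70, SE 0.69, and 0.30 without replicate 1), MER47C 584 and 385 against 440 and 419, and Tigger17 346 and 231 against 218 and 244. Kanga2_a was 1761 and 1464 against 1275 and 1278 (0.33, SE 0.18, limma adjusted p = 0.484, and 0.20 without replicate 1), and both of its libraries exceeded the controls. By name, replicate 2 was higher in 34 of 40 Tigger rows, 15 of 17 Tigger-class MER rows, 5 of 7 Kanga rows, both MADE rows and both MamRep rows, but in 1 of 4 UCON rows (UCON55) and in neither HSMAR row.

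**Figure D4:**
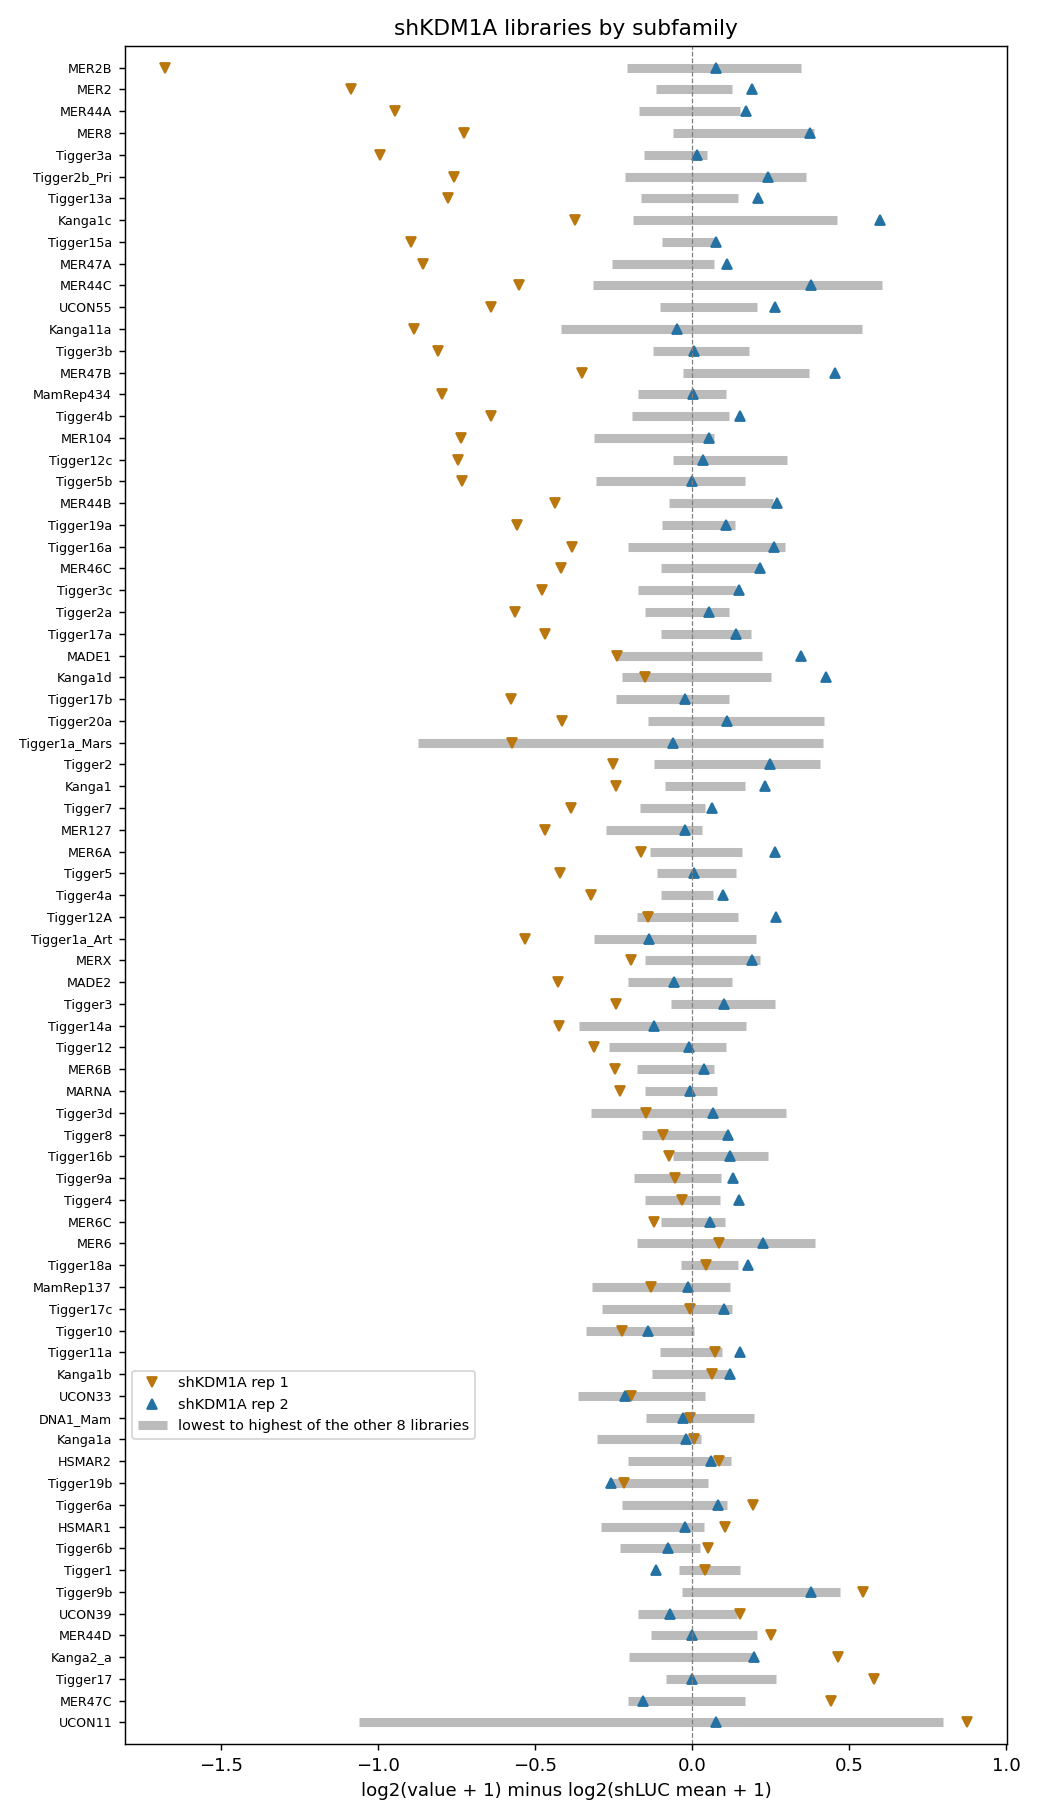
Each row is a TcMar subfamily, ordered by the difference between the shKDM1A libraries; triangles give log2(value + 1) minus that of the shLUC mean, and grey bars span the other 8 libraries. Replicate 1 (pointing down) falls left of the grey bar in most rows. Replicate 2 (pointing up) is the highest of the 10 libraries in 23 of the 77 rows.

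Replicate 1 stood apart on all TE rows too. It held the lowest of 10 values in 59.7% of TcMar rows, 52.9% of hAT rows, 37.6% of TE rows and 26.8% of all rows. It held the highest in 13.0% of TcMar rows, 16.8% of hAT rows, 21.5% of TE rows and 24.2% of all rows, so over the whole table it was extreme in both directions. TE rows took 12.8% of its table total against 16.0% in replicate 2. KDM1A itself was lower in replicate 2 (1879) than in replicate 1 (3290). The summed pluripotency markers were 267398 in replicate 1 and 165171 in replicate 2, of which POU5F1 made up 148866 and 35710. The value 148866 was the highest of every library, so it marks the top rank and not the size of a rise. Without POU5F1 the sums were 118532 and 129461, and of the 10 markers 5 were lower in replicate 1 (NANOG, LIN28B, DPPA4, ZFP42 and TDGF1), 4 higher and 1 equal. None of the 10 was at 0. Among markers of other cell types, NES was 10757 and 5026 and KRT7 360 and 172 in replicates 1 and 2. The part of these in the TcMar split was not tested. Without replicate 1 the median change of the members was 0.0996 and 0 of 77 passed; without replicate 2 it was -0.2456 and 19 passed (24.7%, beside 21.9% of all rows), 18 of them lower. In each of these fits the lone shKDM1A library was assumed to vary like the other groups, so neither number has a replicate behind it.

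Tigger9b was the single member that exceeded both controls in all 8 knockdown libraries. It stood at 505 and 484 in shLUC, 622 and 640 with shSMARCA4, 572 and 526 with shMAFK, 571 and 686 with shE2F6, and 722 and 644 with shKDM1A. Its group means were 494.5 ± 14.8 (SD, n = 2) in shLUC and 683 ± 55.2 (SD, n = 2) in shKDM1A, where the log2 change was 0.46 (SE 0.15, unadjusted p = 0.014, limma adjusted p = 0.359). Without shKDM1A replicate 1 the change was 0.38 (limma adjusted p = 0.638). It had the smallest p in the F-test over the 5 groups as well, and that too failed the correction (adjusted p = 0.303, limma). The 1 of 77 compares with 2.06% of all rows and 4.21% of TE rows that lay above both controls in all 8 libraries.

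Tigger10 was its counterpart, the only member below both controls in all 8 knockdown libraries. It stood at 3874 and 3902 in shLUC, 3227 and 3367 with shSMARCA4, 3528 and 3290 with shMAFK, 3074 and 3151 with shE2F6, and 3330 and 3528 with shKDM1A. The shLUC mean was 3888 ± 19.8 (SD, n = 2) and the lowest group mean was 3112.5 ± 54.4 (SD, n = 2) in shE2F6. Among all rows, 1.86% lay below both controls in all 8 libraries. Both patterns rest on the same pair of shLUC libraries, and a share near that of all rows says nothing particular about these members.

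**Figure D5:**
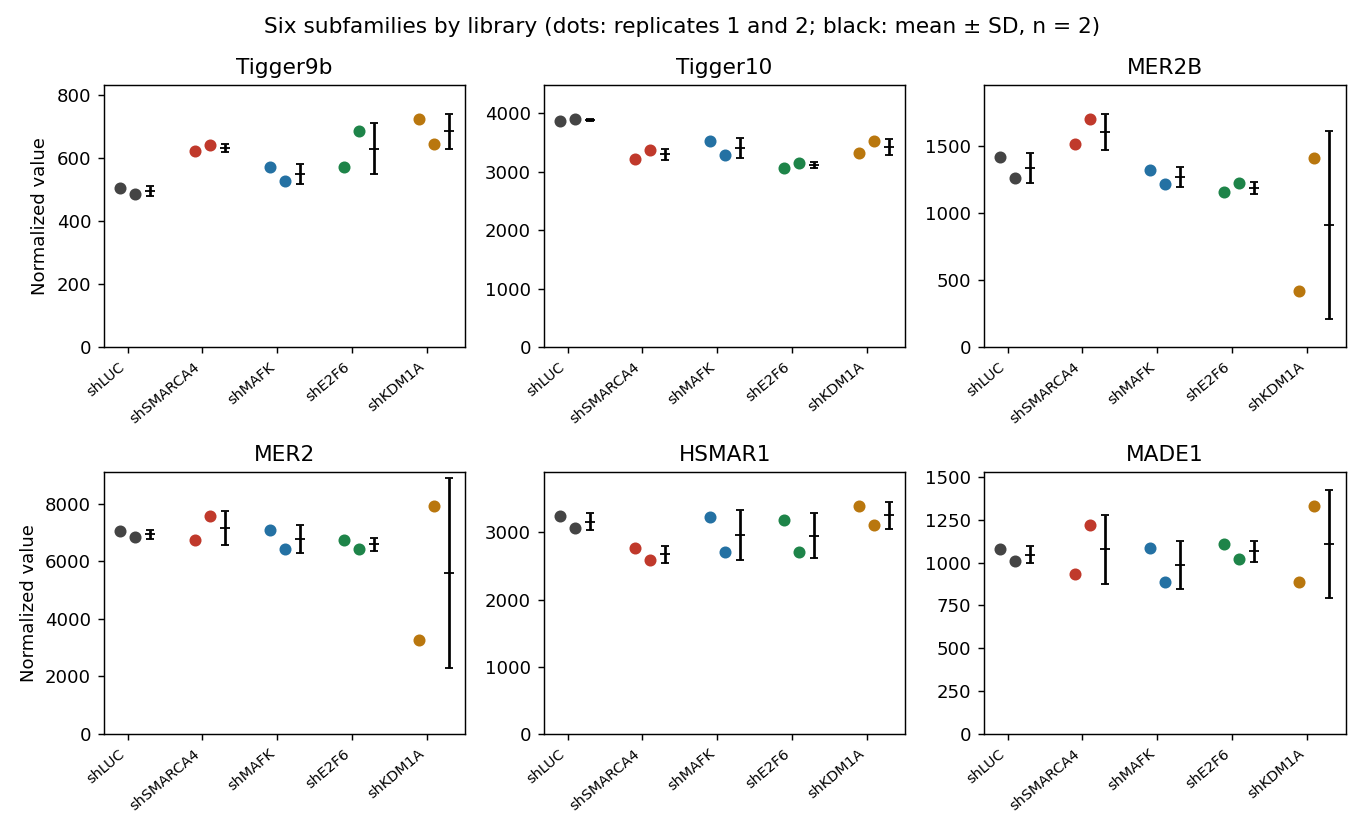
Normalized value (axis from 0) of 6 TcMar subfamilies in each library; dots are replicates 1 and 2 and black bars the mean ± SD (n = 2). Tigger9b dots of the knockdowns lie above shLUC, Tigger10 dots below, and the shKDM1A dots of MER2B and MER2 lie far apart.

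None of the 5 mariner rows passed a test in the 4 comparisons. HSMAR1, whose transposase lives on in the host gene SETMAR, was 3247 and 3074 in shLUC, 2768 and 2586 with shSMARCA4, 3227 and 2702 with shMAFK, 3190 and 2712 with shE2F6, and 3396 and 3110 with shKDM1A. Its largest change was in shSMARCA4 (-0.24, SE 0.16, limma adjusted p = 0.534), where both libraries were below the controls. HSMAR2 was 2832 and 3247 in shLUC, and its knockdown libraries lay between 2639 and 3315, on both sides of the controls. MADE1, the palindromic miniature mariner, was 1082 and 1010 in shLUC, 936 and 1220 with shSMARCA4, 1084 and 887 with shMAFK, 1110 and 1020 with shE2F6, and 887 and 1331 with shKDM1A. Every knockdown pair of MADE1 overlapped or straddled the controls. MADE2 ranged from 676 to 992 and MARNA from 3170 to 3929, both lowest in shKDM1A replicate 1.

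Summed by class, the lowest group mean fell in shKDM1A for the Tigger class, in shMAFK for the Tc2 class and in shE2F6 for the Mariner class. The Tigger class summed to 109867 ± 5692 (SD, n = 2) in shLUC and to 99499 ± 20304 (SD, n = 2) in shKDM1A, where replicate 2 alone was 113856. The Tc2 class summed to 7573.5 ± 847.8 in shLUC and ran from 6903 in shMAFK to 8087.5 in shE2F6. The Mariner class summed to 11872.5 ± 115.3 in shLUC and ran from 11299.5 in shE2F6 to 11769.5 in shKDM1A. The unclassified row DNA1_Mam ranged from 178 to 226. Besides Tigger9b, the smallest F-test p-values over the 5 groups belonged to the Tc2 rows Kanga11a (adjusted p = 0.372, limma) and Kanga2_a (adjusted p = 0.433, limma), so 0 of 77 passed that test, and 0 had an unadjusted p under 0.05, beside 5.07% and 21.1% of all rows. Without shKDM1A replicate 2 the F-test called 13 members (16.9%), beside 31.6% of all rows.

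How large a change these data would have allowed can be read from the 95% intervals of the fit. The interval lay within 1 log2 unit of 0, that is within 2-fold, in 73 members after SMARCA4 knockdown, 74 after MAFK, 73 after E2F6 and 69 after KDM1A knockdown. The exceptions always included UCON11, Tigger1a_Mars and MER2B. MER44C was a further exception for SMARCA4 and Kanga11a for E2F6, and Kanga11a, MER2, MER44A, Tigger15a and Tigger3a were further exceptions for KDM1A. The median distance from the estimate to either end was 0.443 log2 units, before any correction for multiple tests. This distance pools the spread of the shKDM1A pair into every group. With a weight per group, estimated over all rows, it was 0.343 for SMARCA4, 0.294 for MAFK, 0.325 for E2F6 and 0.548 for KDM1A. With these weights the interval lay within 1 log2 unit in 75, 76, 74 and 70 members. Without shKDM1A replicate 1 it did so in 75, 75, 75 and 74 members.

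No host gene derived from a TcMar transposase passed the test. Of 13 such genes looked for, 12 were in the table, and 0 passed in any knockdown in either direction at an adjusted p. CENPB, the centromere protein that binds alpha satellite DNA, was 1346 and 967 in shLUC, and its knockdown libraries ran from 858 to 1548. POGZ, a zinc finger protein with a pogo-type transposase domain that binds heterochromatin protein HP1, was 2530 and 2340 in shLUC and ran from 2022 to 2796. SETMAR, a fusion of a histone methyltransferase domain and the HSMAR1 transposase, was 455 and 478 in shLUC, 423 and 374 with shSMARCA4, and 608 and 416 with shKDM1A. Because SETMAR holds a copy of HSMAR1, reads of that copy may enter either row. TIGD5, a Tigger-derived gene, had an unadjusted p under 0.05 in shMAFK (log2 change 0.81, limma adjusted p = 0.53), shE2F6 (0.88, 0.927) and shKDM1A (0.98, 0.366). Its shLUC values of 160 and 78 differed widely, and its knockdown libraries ran from 167 to 275.

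The sign of a typical change was within the spread of single libraries. The median over the members moved to -0.0504 in shSMARCA4 without its replicate 2 and to -0.0104 without shLUC replicate 2, to 0.0454 in shMAFK without its replicate 2 and to 0.0172 without shLUC replicate 1, and to 0.0646 in shE2F6 without shLUC replicate 1. In shLUC itself, replicate 1 exceeded replicate 2 in 63 of 77 members, beside 7505 of 14785 rows in all. Scaling each library to an equal median of TE rows shifts all rows of a library alike and leaves the members' place among other rows as it was. It moved the members' medians to -0.0677, -0.0528, -0.0721 and -0.2653 in shSMARCA4, shMAFK, shE2F6 and shKDM1A, with 20, 20, 24 and 4 of 77 above 0 in place of 46, 25, 38 and 27, and the median of all rows to -0.0984, -0.0223, -0.0746 and -0.2026. The counts above 0 moved with this common shift.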

How the data were processed

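RNA-seq of H1 cells was analysed from the table of single libraries (10 libraries, 5 groups of 2). The values the authors deposited are treated as a score: whole numbers that are already normalized and not raw counts, as their equal medians and near-equal totals show. Per the submitters' processing notes, STAR and STARsolo and the hg38 build were used; versions, TE annotation and normalization are not given in the sources used here. Depth is therefore unknown, and the values mostly follow the rank of a row in its library.

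Groups and replicate numbers came from the sample titles. Every row with a mean of at least 10 (all 14785) was analysed as log2(value + 1) with limma 3.58.1 in R 4.3.3 (two-sided; lmFit, then eBayes with its trend option). All libraries entered the same fit, which left 5 residual degrees of freedom, with Benjamini-Hochberg adjustment over all rows at a threshold of 0.05. Fold changes are on this scale and come out too small for low rows. P-values measure the spread between these libraries. The code was tested on simulated data.

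The TcMar members, the gene lists and the tests were chosen with earlier results of these data known. Described in full are the 3 highest and 3 lowest members by mean, the 3 largest changes in each direction per knockdown, every member called or with an unadjusted p under 0.05 in 2 or more knockdowns, the 3 smallest F-test p-values, and MADE1, HSMAR1 and HSMAR2. The lists were transposase-derived genes (CENPB, JRK, JRKL, POGZ, POGK, TIGD1 to TIGD7, SETMAR), the 4 targets and markers of pluripotent, mesendoderm, neural ectoderm and trophoblast cells. Alternatives were pseudocounts of 0.5 and 10, other filters, scalings and fits, a replicate block and leaving out libraries.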

Additional observations from a re-analysis of the deposited data

How the results depend on the processing

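The number of TcMar members past the threshold was 0 in 80 of the 82 alternative counts over the 4 comparisons and the F-test. The settings were other pseudocounts, filters, scalings, fits of fewer groups, group weights, no trend, and leaving out libraries. Among the last was shKDM1A replicate 1 left out of the fit for the other 3 knockdowns (chosen after seeing the data). Several counts come from the same fit, so the 82 are not independent checks. Dropping the filter could change nothing, since all 14785 rows already passed it. Quantile normalization, among the scalings, gives every library the same set of values. It could change little, since 80.3% of ranks already held the same value in all 10 libraries. The 2 exceptions both left out shKDM1A replicate 2, which gave 19 called members for shKDM1A (24.7%, beside 21.9% of all rows), against 0 without shKDM1A replicate 1 or either shLUC library, and 13 in the F-test (16.9%, beside 31.6% of all rows), against 0 without any of the other 9 libraries in turn. These fits have fewer samples, and the lone library is assumed to vary like the other groups. With the replicate number as a block, 0 members were called in each of the 5 tests. Over all rows, deviations of same-numbered libraries correlated between -0.05 and 0.337, above 0.1 in 2 of 10 pairs of groups, and over the members between 0.033 and 0.516, above 0.1 in 7 of 10. Since neither exceeded 0.1 in every pair, the main fit used no pairing. Over the members every correlation was positive, and whether same-numbered libraries were handled together was not tested.

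The median log2 change over the members moved by more than the spread between replicates with scaling to the median of TE rows, to -0.0677 in shSMARCA4, -0.0721 in shE2F6 and -0.2653 in shKDM1A; that scaling shifts all rows of a library alike. Leaving out 1 library gave medians from -0.0504 to 0.0883 in shSMARCA4, from -0.0957 to 0.0454 in shMAFK, from -0.0543 to 0.0646 in shE2F6 and from -0.2456 to 0.0996 in shKDM1A. For Tigger9b in shKDM1A the limma adjusted p ran from 0.0459 (without shKDM1A replicate 2) to 0.912 over 14 alternatives, and for Tigger10 in shE2F6 from 0.332 to 1 over 16. With 2 libraries a group and no known depth, changes smaller than these intervals could not be told from 0.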
